A study of Mus musculus with 6 samples.

Results

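Small nucleolar RNAs (snoRNAs) and small Cajal body RNAs (scaRNAs) were followed in primary cultures of mouse ventral midbrain in which the circular RNA circRmst had been targeted. The 152 members were the gene rows whose symbols began with Snord, Snora or Scarna and a number, out of 42396 rows in each count table. They comprised 104 C/D box snoRNAs (Snord), 39 H/ACA box snoRNAs (Snora) and 9 scaRNAs (Scarna). The knockdown group was made up of 3 libraries from wild-type cultures infected with a lentivirus that carried the hairpin shRmstI against circRmst, and the control group of 3 libraries from wild-type cultures infected with a virus that carried the scramble hairpin Scr2. All cultures came from embryos at embryonic day 14, received virus at a multiplicity of infection of 5 on the day of plating, and were harvested at 3 days in vitro. The question of the series was what lowering circRmst does to neuron shape, migration and gene expression. The labels give 3 independent cultures but not which libraries share one, so p-values measure the spread between these libraries alone.

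C/D box snoRNAs pair with a target RNA next to their D box and place a methyl group on its ribose, together with the proteins fibrillarin, Nop56, Nop58 and Snu13. H/ACA box snoRNAs guide the change of uridine to pseudouridine, together with dyskerin, Nop10, Nhp2 and Gar1. Most members of both classes act on ribosomal RNA in the nucleolus, and a few are needed to cut its precursor. The scaRNAs carry C/D boxes, H/ACA boxes or both, are held in the Cajal body and guide the same changes on the small nuclear RNAs of the spliceosome. Most of these RNAs in mammals are not transcribed alone but are trimmed from the introns of host genes. In the brain some C/D box RNAs come from imprinted clusters and have no known target in ribosomal RNA.

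The boxes that define the classes are shown for members on which the results below turn, in GENCODE vM21 sequences (GRCm38) that are written 5′ to 3′. Capitals mark the C box core (letters TGATGA) and the D box (letters CTGA), or the ACA box. The first set shows a scaRNA with C/D boxes (Scarna9), a scaRNA with an ACA end (Scarna13), the 2 H/ACA box RNAs with the most counts (Snora73b and Snora73a) and the H/ACA box RNA with the smallest spread between libraries among those of at least 50 counts (Snora28).
Scarna9: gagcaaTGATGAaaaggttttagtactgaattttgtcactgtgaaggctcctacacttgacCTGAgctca
Scarna13: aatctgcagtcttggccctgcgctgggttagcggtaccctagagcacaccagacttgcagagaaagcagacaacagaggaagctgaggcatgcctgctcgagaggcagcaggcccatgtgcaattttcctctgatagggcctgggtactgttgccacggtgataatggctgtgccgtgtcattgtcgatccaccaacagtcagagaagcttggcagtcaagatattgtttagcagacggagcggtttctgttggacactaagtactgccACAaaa
Snora73b: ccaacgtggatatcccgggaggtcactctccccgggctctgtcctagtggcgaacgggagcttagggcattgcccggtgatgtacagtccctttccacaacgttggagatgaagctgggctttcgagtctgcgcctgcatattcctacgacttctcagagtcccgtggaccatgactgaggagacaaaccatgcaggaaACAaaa
Snora73a: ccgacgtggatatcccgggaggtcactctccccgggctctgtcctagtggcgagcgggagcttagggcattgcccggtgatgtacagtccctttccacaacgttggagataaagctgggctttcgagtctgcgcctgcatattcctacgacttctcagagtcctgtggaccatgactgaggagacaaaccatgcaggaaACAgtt
Snora28: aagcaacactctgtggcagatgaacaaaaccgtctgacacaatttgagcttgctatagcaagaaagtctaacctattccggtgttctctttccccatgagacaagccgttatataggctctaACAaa

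Scarna9 lies at chr9:15326264-15326333 on the minus strand, in an intron of every annotated transcript of Cep295. Scarna13 lies at chr12:105031075-105031349 on the minus strand, in an intron of the long non-coding RNA gene Snhg10. Snora73b (chr4:132352322-132352526) and Snora73a (chr4:132352775-132352979) are neighbours on the minus strand within Snhg3, where Snora73b is intronic in every transcript and Snora73a overlaps an exon of one. Their sequences shared 198 of 205 aligned bases, so reads may have been divided between them. Snora28 lies at chr12:111540941-111541067 on the plus strand and overlaps, of the transcripts of the translation factor gene Eif5, retained-intron forms alone.

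Of the C/D box RNAs, the pair with the highest level per kilobase (Snord64 and Snord2), the one with the smallest p (Snord15b), the one that lay above the control in every knockdown library (Snord99) and 2 pairs of near-identical copies are shown.
Snord64: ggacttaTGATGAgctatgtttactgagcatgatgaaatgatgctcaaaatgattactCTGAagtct
Snord2: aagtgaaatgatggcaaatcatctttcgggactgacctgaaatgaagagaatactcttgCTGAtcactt
Snord15b: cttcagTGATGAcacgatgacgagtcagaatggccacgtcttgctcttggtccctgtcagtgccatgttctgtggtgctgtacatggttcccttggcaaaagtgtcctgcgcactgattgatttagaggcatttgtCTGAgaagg
Snord99: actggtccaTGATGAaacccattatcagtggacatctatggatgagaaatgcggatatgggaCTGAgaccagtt
Snord14c: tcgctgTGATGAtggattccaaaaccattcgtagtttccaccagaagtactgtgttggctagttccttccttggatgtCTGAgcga
Snord14d: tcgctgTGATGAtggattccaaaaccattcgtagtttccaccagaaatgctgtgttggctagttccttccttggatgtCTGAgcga
Snord116l1: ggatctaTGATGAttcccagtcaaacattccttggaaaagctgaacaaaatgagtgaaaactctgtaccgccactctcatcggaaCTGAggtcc
Snord116l12: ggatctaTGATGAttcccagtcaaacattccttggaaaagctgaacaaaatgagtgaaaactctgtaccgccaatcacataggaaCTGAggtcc

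Snord64 (chr7:59978808-59978874, minus strand) and the Snord116 copies l1 (chr7:59894620-59894713) and l12 (chr7:59904755-59904848) lie in introns of Snhg14, the long non-coding RNA of the imprinted Prader-Willi region. Snord2 lies at chr16:23108953-23109021 on the plus strand within Eif4a2 and Snord15b at chr7:99479563-99479707 on the minus strand within the ribosomal protein gene Rps3, and both overlap retained-intron forms of the host alone. Snord99 lies at chr4:132310691-132310764 on the plus strand and overlaps an exon of a transcript of Snhg12. Snord14c (chr9:40803583-40803668) and Snord14d (chr9:40803995-40804080) are on the plus strand within the chaperone gene Hspa8.

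The letters of the boxes separated the classes as their names do. On the strand of the RNA, TGATGA was present in the first 25 bases of 66 of 94 C/D box sequences, 0 of 39 H/ACA box sequences and 4 of 9 scaRNAs. CTGA was present in the last 20 bases of 92 of 94, 4 of 39 and 5 of 9, and ACA in the last 10 bases of 9 of 94, 37 of 39 and 4 of 9. Among 32851 RefSeq promoter windows (GRCm38) cut to the median C/D box length of 86 bases and searched the same way, 0.472% held TGATGA, 8.54% held CTGA and 12.2% held ACA. The 142 members with a GENCODE sequence had 129 distinct sequences, and 1 sequence was shared by 14 members, all of them Snord116 rows.

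The members were a small part of libraries of 27248934 to 43646521 counts and took between 0.0161% and 0.0302% of them. Of the 17439 genes that passed the filter on low counts, 0 (0%) were called at an adjusted p under 0.05 in edgeR's quasi-likelihood test. All 11 markers of dopamine neurons, the labelled cell type, were tested, with summed levels of 606 to 742 CPM in the knockdown and 634 to 752 CPM in the control (counts scaled to the library size by TMM). Markers of radial glia and astrocytes were also present, at 1066 to 1340 CPM in the knockdown and 986 to 1329 CPM in the control, so the members were measured in mixed cultures. In such bulk samples, fewer cells of a type and less RNA per cell cannot be told apart. The host gene of circRmst, Rmst, had a log2 fold change of -0.16 ± 0.10 (SE) for linear and circular reads together, which does not check the knockdown.

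Most members of each class were seen in every library. A count in all 6 libraries was recorded for 63 of 104 C/D box RNAs, 31 of 39 H/ACA box RNAs and 6 of 9 scaRNAs. No count in any library was recorded for 24, 5 and 0 members of these classes. Of these 29 members, 10 were second listings of a gene on alternate sequences and 8 were copies of Snord116. The filter on low counts was passed by 46 C/D box RNAs, 30 H/ACA box RNAs and 6 scaRNAs, 82 members in all, and the others are described by their counts only. Of the members, 142 were shorter than a read of 150 bases. The filter was passed by 9 of 10 members of 150 bases or more, 26 of 36 from 100 to 149 bases, 15 of 48 from 75 to 99 bases and 32 of 58 shorter ones.

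The scaRNAs were the highest class per kilobase. The median over members with a count in every library was 66.9 CPM per kilobase for scaRNAs (n = 6), 6.31 for H/ACA box RNAs (n = 31) and 4.70 for C/D box RNAs (n = 63). The scaRNA median was above the other class medians in each of the 6 libraries, at 107, 59.4 and 45.2 CPM per kilobase in knockdown replicates 1, 2 and 3 and at 64.9, 68.8 and 55.8 in control replicates 1, 2 and 3. The medians of the other classes lay between 4.13 and 7.46 CPM per kilobase in every library. The H/ACA box median was above the C/D box median in each library, although the members of both classes overlapped over nearly their whole range, from 1.42 to 46.9 CPM per kilobase for H/ACA box RNAs and from 0.764 to 49.0 for C/D box RNAs. These lengths are RefSeq's. With GENCODE's lengths, which were longer for 96 of 142 members, the class medians were 50.6, 5.14 and 4.38 CPM per kilobase, in the same order. Over the members with a count in every library, Spearman's rho between length and mean count was 0.43 with GENCODE's lengths and 0.39 with RefSeq's. For the 6 scaRNAs it was 0.89 and 0.09. The part that length had in recovery, and so in the order of the classes, was not tested.

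**Figure D1:**
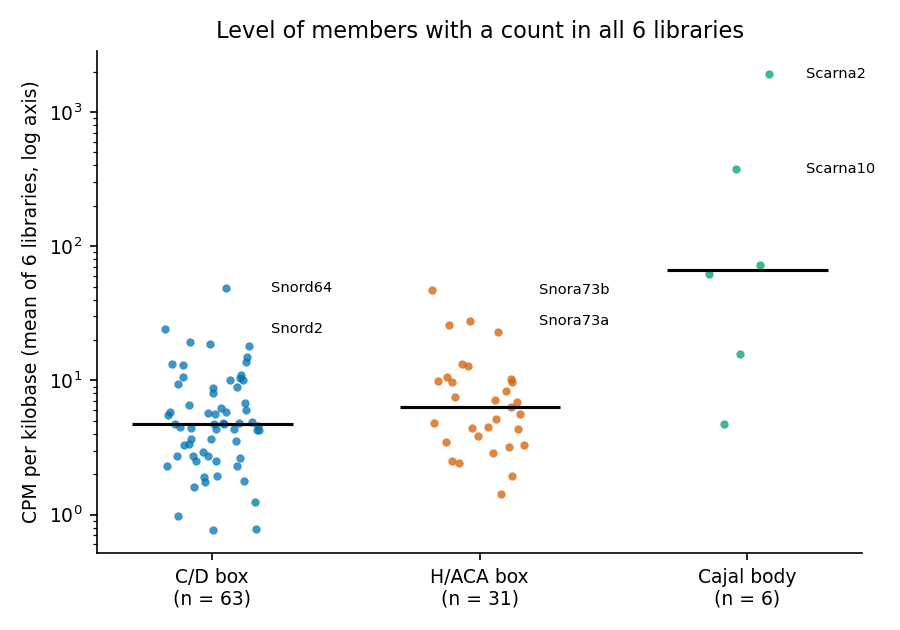
Level of the 100 members with a count in all 6 libraries, as CPM per kilobase of RefSeq length on a log axis, 1 point per member and a line at the class median. The scaRNA median of 66.9 stood above those of the H/ACA box (6.31) and C/D box (4.70) RNAs, and the points of the last pair overlapped.

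A single RNA made up much of the signal. Scarna2, which in humans guides methylation of the U2 spliceosomal RNA, had 70.3% of the summed level of the scaRNAs and 48.3% of that of all 152 members. Together the 9 scaRNAs, 5.92% of the members, held 68.7% of the summed CPM of all members, against 17.4% for H/ACA box and 13.9% for C/D box RNAs. The level of Scarna2 per kilobase depended on the annotation, which gives it 61 bases in RefSeq and 414 bases in GENCODE. It was 1932 CPM per kilobase with the first and 285 with the second, and the highest of all members with either. Scarna10, a composite guide known in humans as U85, followed at 374 CPM per kilobase with its RefSeq length of 71 bases and 81.7 with 325 bases in GENCODE. The C/D box class had no such leader: its top member by summed level, Snord17, had 8.91% of the class, and Snora73b had 22.6% of the H/ACA box class.

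The deposited FPKM tables gave another picture of the same RNAs. In them 22 to 37 of the 152 members were above 0 in a library, and 12 were above 0 in all 6. Of the members with at least 10 counts in a library, between 53.6% and 75% were listed at an FPKM of 0, compared with 1.47% to 2.27% of other genes with at least 10 counts. Scarna2 was listed at 0 FPKM in all knockdown libraries, where it had 5825, 5611 and 2833 counts, and in control replicate 1, where it had 3355, but at 2927 and 1497 FPKM in control replicates 2 and 3. Snord13 was listed at 784 FPKM in knockdown replicate 1 on 18 counts, where Snora73b was listed at 519 FPKM on 701 counts. The reverse also occurred: Snora26, with 0 counts in every library, was listed at 60.4 FPKM in knockdown replicate 1 and 45.7 FPKM in control replicate 3. Neither kind of value thus recorded every member, and levels below are from the counts.

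No member was called as changed. In edgeR's test 0 of 46 C/D box RNAs, 0 of 30 H/ACA box RNAs and 0 of 6 scaRNAs had an adjusted p under 0.05, and the smallest adjusted p of a member was 1.00. At an unadjusted p under 0.05 there were also 0 members, beside 191 (1.10%) of all genes tested. DESeq2 and limma voom also called 0 members. The log2 fold change was above 0 for 24 of 46 C/D box RNAs, 21 of 30 H/ACA box RNAs and 3 of 6 scaRNAs, or 48 of 82 members, against 48.1% of all genes. Its median was 0.04 for C/D box RNAs, 0.07 for H/ACA box RNAs and -0.02 for scaRNAs, beside -0.01 for all genes. These medians changed sign when single libraries were left out, over ranges of -0.12 to 0.15, -0.03 to 0.21 and -0.46 to 0.34. Groups without overlap were found for 3 members that were higher in the knockdown, Snora20, Snora28 and Snord99, where 2.28% of all genes did so, and for 1 that was lower, Snord12, where 2.92% did so.

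The intervals were wide. The half-width of the 95% interval had a median of 0.91 on the log2 scale for the tested members and of 0.33 for all genes. The whole interval lay within a 2-fold change for 11 C/D box RNAs, 12 H/ACA box RNAs and 2 scaRNAs, or 25 of 82 members, and for 14225 of 17439 genes. The median over members of the mean count was 16.5 for tested C/D box RNAs, 27.5 for H/ACA box RNAs and 373 for scaRNAs, against 668 for all genes. For the other members a 2-fold difference in at least one direction lay within the interval, so that a change of that size was not shown to be absent.

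**Figure D2:**
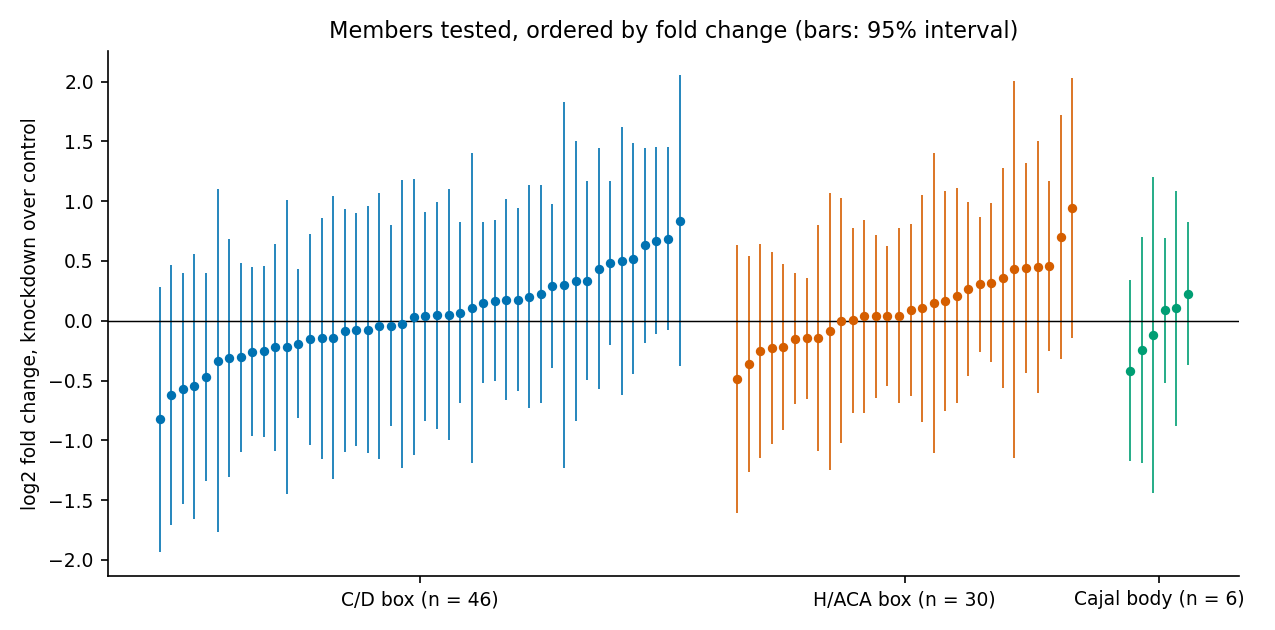
Log2 fold change, knockdown over control, of the 82 tested members by class, ordered by value, with 95% intervals. Every interval crosses 0, and the class medians were 0.04, 0.07 and -0.02.

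The summed levels of the classes overlapped between the groups. The C/D box sum was 40.4, 33.1 and 32.4 CPM in knockdown replicates 1, 2 and 3, against 29.1, 32.5 and 35.4 CPM in control replicates 1, 2 and 3. The H/ACA box sum was 55.3, 47.5 and 32.4 CPM in the knockdown, against 36.0, 41.8 and 42.3 CPM in the control. The scaRNA sum was 185, 228 and 91.8 CPM in the knockdown, against 136, 193 and 171 CPM in the control. Knockdown replicate 3 was the lowest library for both the H/ACA box and the scaRNA sums, and knockdown replicate 1 was the highest for both box classes. The highest library was 1.39 times the lowest for C/D box RNAs, 1.71 times for H/ACA box RNAs and 2.48 times for scaRNAs.

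**Figure D3:**
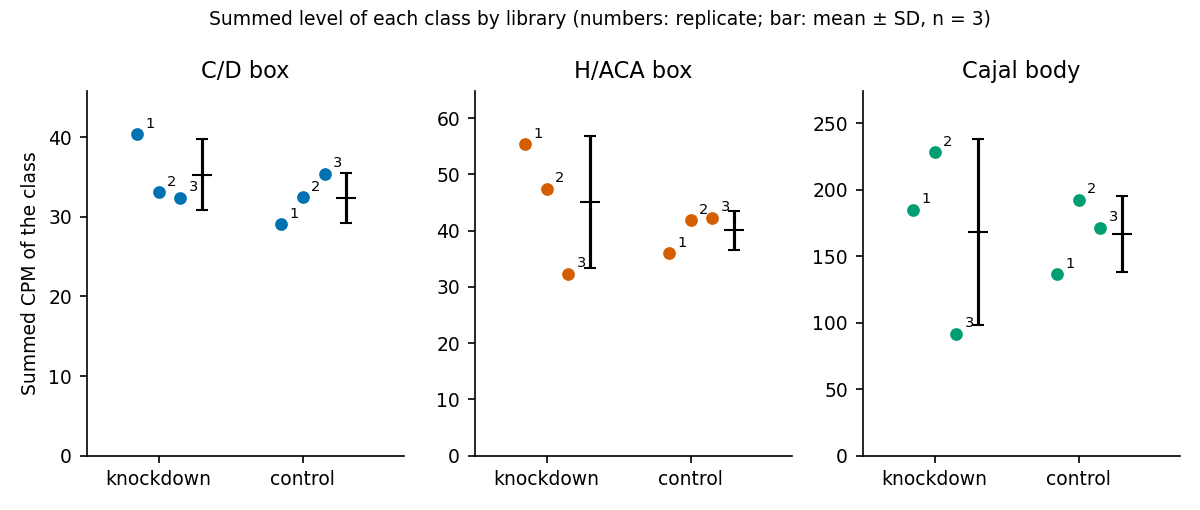
Summed CPM of each class in the knockdown and control libraries, with the replicate number beside each point and the mean ± SD (n = 3) as a bar. Knockdown replicate 3 lay at 91.8 CPM for scaRNAs, below the control libraries at 136 to 193, while its C/D box sum of 32.4 CPM lay among them.

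With all 6 libraries the scaRNAs varied most within a group, an order of the classes that was lost without knockdown replicate 3. The within-group SD of log2(CPM + 0.1) had a median of 0.66 over the 6 tested scaRNAs, where counting error alone gives 0.09, and every one of them was above its counting error. The median was 0.36 for H/ACA box RNAs with a counting error of 0.25, and 0.38 for C/D box RNAs with a counting error of 0.29. Members with few counts were about as spread as other genes at the same counts. Under 20 mean counts the median SD was 0.42 for 25 C/D box RNAs and 0.36 for 10 H/ACA box RNAs, beside 0.48 for all genes, and from 20 to 50 counts it was 0.31 for 17, 0.36 for 13 and 0.40 for all genes. From 50 to 200 counts it was 0.44 for 4 C/D box RNAs, 0.23 for 5 H/ACA box RNAs and 0.79 for 2 scaRNAs, beside 0.29 for all genes. The 5 members with at least 200 mean counts stood apart: their SDs were 0.51 to 0.68, larger than those of 98.5% to 99.3% of the 11715 genes in that range, whose median was 0.15.

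**Figure D4:**
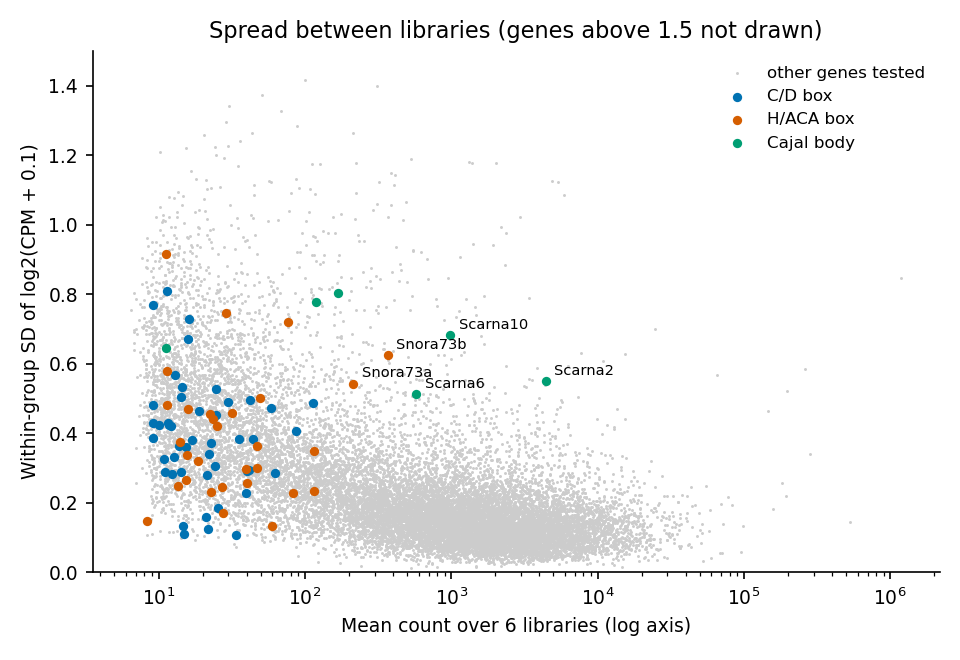
Within-group SD of log2(CPM + 0.1) against the mean count of every tested gene, with the members coloured by class. C/D box RNAs lie within the grey cloud at low counts, and Scarna2, Scarna10, Scarna6, Snora73b and Snora73a lie above it at SDs of 0.51 to 0.68, where the median gene of at least 200 counts has 0.15.

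Scarna2 had 134, 163 and 67.7 CPM in knockdown replicates 1, 2 and 3, against 81.8, 142 and 120 CPM in control replicates 1, 2 and 3. It was low in knockdown replicate 3 and in control replicate 1, and the groups overlapped, with means of 121 ± 48.7 CPM in the knockdown and 114 ± 30.2 CPM in the control (SD, n = 3 each). Its log2 fold change was 0.09 ± 0.27 (SE, unadjusted p = 0.758 in edgeR), and it turned to -0.10 without control replicate 1 and to -0.18 without knockdown replicate 2. Scarna10, from the condensin gene Ncapd2, had 20.3, 38.0 and 10.03 CPM in the knockdown, against 33.2, 27.9 and 29.9 CPM in the control. The knockdown libraries lay on both sides of the control, which was even, and the log2 fold change was -0.42 ± 0.34. Without knockdown replicate 3 it was -0.05.

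Scarna6, known in humans as U88 and housed by the autophagy gene Atg16l1, had 18.8, 20.9 and 10.01 CPM in the knockdown, against 9.59, 17.1 and 15.8 CPM in the control. Its low libraries were the same as those of Scarna2, and its log2 fold change was 0.23 ± 0.27. Scarna13, the twin H/ACA guide shown above, had 5.65, 4.61 and 1.74 CPM in the knockdown, against 7.56, 2.78 and 3.81 CPM in the control. Here control replicate 1 was the highest library, and the log2 fold change of -0.24 ± 0.43 turned to 0.29 without it and to 0.13 without knockdown replicate 3. Scarna9, which guides U2 methylation in humans, had 5.83, 1.45 and 2.10 CPM in the knockdown, against 3.83, 2.88 and 2.01 CPM in the control. Knockdown replicate 1 was its highest library, and the log2 fold change of 0.11 ± 0.45 was -0.71 without that library and -0.08 without control replicate 3.

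Scarna17 had 21, 10 and 3 counts in the knockdown and 11, 12 and 10 in the control, with a log2 fold change of -0.12 ± 0.60 that was 0.35 without knockdown replicate 3. The remaining scaRNAs, Scarna3a, Scarna3b and Scarna8, had 0 to 4 counts in each library and were not tested. Of the 6 tested scaRNAs, 4 were lowest in knockdown replicate 3, where 17.3% of all genes were lowest.

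Among the H/ACA box RNAs, Snora73b and Snora73a, known as U17 or E1 and needed for cutting the precursor of 18S ribosomal RNA, were the highest. Snora73b had 16.1, 12.3 and 4.99 CPM in knockdown replicates 1, 2 and 3, against 7.88, 8.89 and 7.52 CPM in control replicates 1, 2 and 3. Snora73a had 8.32, 7.37 and 3.15 CPM in the knockdown, against 4.95, 4.45 and 5.72 CPM in the control. Knockdown replicates 1 and 2 were above every control library and knockdown replicate 3 below, for both copies. The log2 fold change of Snora73b was 0.46 ± 0.32 (SE, unadjusted p = 0.185 in edgeR). It ranged from 0.09 to 0.82 with single libraries left out, and was highest without knockdown replicate 3. That of Snora73a was 0.32 ± 0.30 (unadjusted p = 0.315 in edgeR). It ranged from 0.06 to 0.65, and was also highest without that library.

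**Figure D5:**
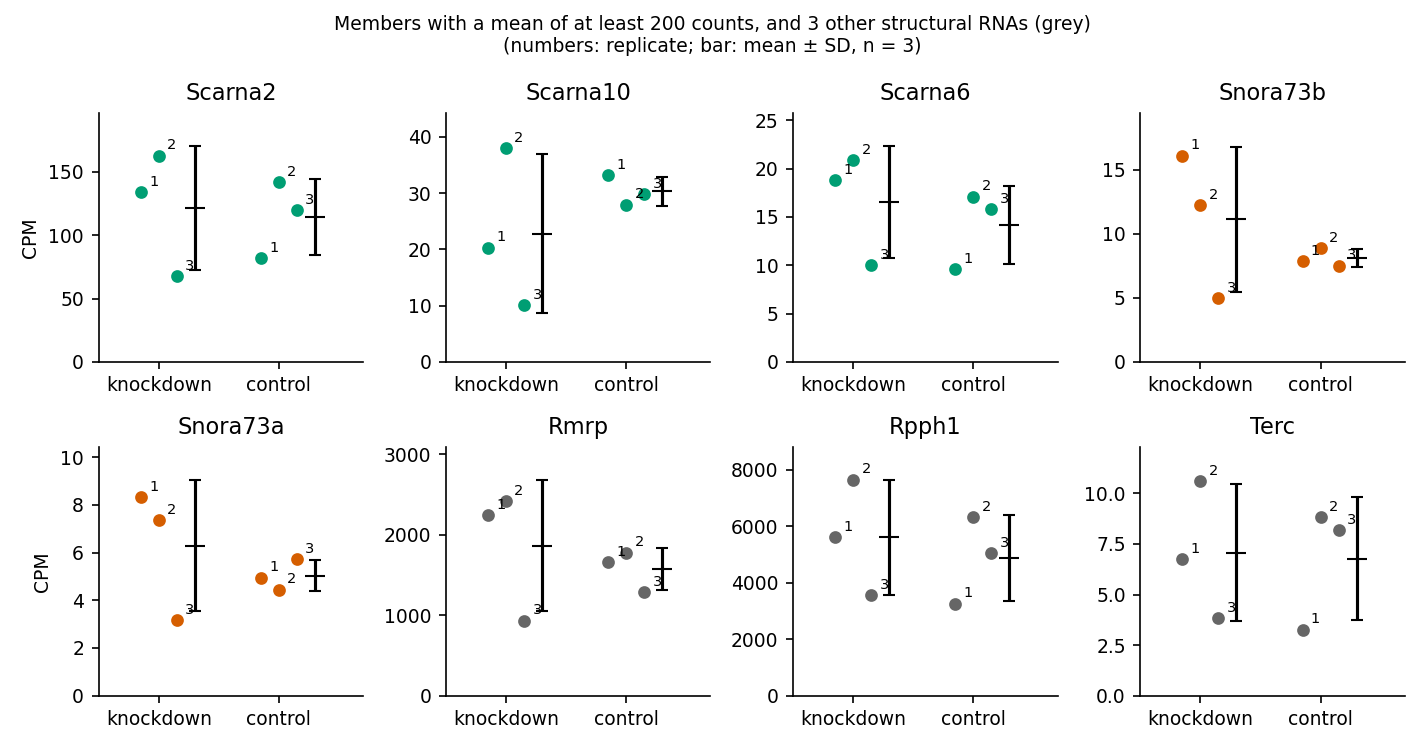
CPM by library of the 5 members with at least 200 mean counts and, in grey, of the structural RNAs Rmrp, Rpph1 and Terc, with the replicate number beside each point and the mean ± SD (n = 3) as a bar. Knockdown replicate 3 was the lowest library in all panels except those of Scarna6, Rpph1 and Terc, in which control replicate 1 was lower.

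Knockdown replicate 3 also set much of the spread. Without it the SD was 0.35 for Scarna2, 0.38 for Scarna10, 0.37 for Scarna6, 0.19 for Snora73b and 0.16 for Snora73a, beside 0.14 for the median gene of at least 200 counts. The median SD of the tested scaRNAs was then 0.38, against 0.66 with all 6 libraries, and no longer the largest: it was 0.39 for C/D box RNAs and 0.31 for H/ACA box RNAs without that library. It stayed the largest when any of the other libraries was left out. Within the control libraries alone the scaRNA median was 0.43, against 0.35 for C/D box and 0.30 for H/ACA box RNAs, with 0.40 for Scarna2 and 0.12 for both Scarna10 and Snora73b.

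Several other structural RNAs that are made as short transcripts of their own had a similar order of libraries. They were looked at after the members' values had been seen. Of 11 such genes, 8 had knockdown replicate 3 and control replicate 1 as their lowest pair of libraries, as did 2 of the 5 abundant members and 15.2% of genes with at least 200 mean counts. Terc, the telomerase RNA, which is itself an H/ACA box RNA, had 6.75, 10.6 and 3.85 CPM in the knockdown and 3.27, 8.84 and 8.20 CPM in the control. Rmrp, which is the RNA of a ribonuclease, had 2238, 2417 and 933 CPM in the knockdown and 1656, 1777 and 1284 CPM in the control. Rnu3a, a gene of the U3 C/D box RNA under another symbol, had 2.25, 2.38 and 0.836 CPM in the knockdown and 1.05, 1.39 and 2.23 CPM in the control. The exceptions were Rmrp, Rn7sk and Rnu11. Rn7sk, the RNA that holds an elongation factor inactive, had 8070, 7927 and 3362 CPM in the knockdown and 9558, 6742 and 5464 CPM in the control, so that control replicate 1 was its highest library. Rnu11, a spliceosomal RNA, was lowest in knockdown replicate 1, at 9 counts. The ribosomal RNA gene Rn28s1 took 4.49%, 3.17% and 1.01% of the counts in the knockdown and 4.02%, 2.90% and 2.98% in the control. The part that residual ribosomal RNA or RNA quality had in the spread of the members was not tested.

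The other named H/ACA box RNAs had lower levels per kilobase, and their SDs lay on both sides of those of Snora73b and Snora73a. Snora65, in the ribosomal protein gene Rpl12, had 3.65, 2.38 and 2.58 CPM in the knockdown, against 3.10, 3.44 and 3.02 CPM in the control, and a log2 fold change of -0.15 ± 0.23. Snora17, in Snhg7, had a log2 fold change of 0.04 ± 0.27 that was below 0 in 4 of the 6 fits with a library left out. Snora28 had the smallest SD of the class among members of at least 50 counts, 0.13, with 1.84, 1.60 and 1.72 CPM in the knockdown, against 1.24, 1.36 and 1.58 CPM in the control. Its lowest knockdown library was just above its highest control library, and the log2 fold change was 0.30 ± 0.26 (SE, unadjusted p = 0.259 in edgeR). Snora74a had the largest SD among members of the class of at least 50 counts, 0.72, with 2.57, 2.55 and 1.48 CPM in the knockdown, against 0.805, 2.12 and 3.02 CPM in the control. It was lowest in control replicate 1, and its log2 fold change of 0.17 ± 0.42 was -0.21 without that library.

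The largest SD of all tested members was that of Snora75, 0.91, at 17, 3 and 21 counts in the knockdown and 13, 2 and 11 counts in the control, and it was named after its values had been seen. The smallest p-values of the class were those of Snora20 and Snora69, which had mean counts of 8.33 and 14. Snora20, in the chaperonin gene Tcp1, had 13, 10 and 11 counts in the knockdown, against 7, 6 and 3 counts in the control. All its knockdown libraries were above its control libraries, and the log2 fold change was 0.94 ± 0.49 (SE, unadjusted p = 0.0834 in edgeR). Snora69, in the ribosomal protein gene Rpl39, followed with 0.70 ± 0.46. On the lower side Snora23, in the importin gene Ipo7, had a log2 fold change of -0.49 ± 0.51, which was 0.04 without control replicate 3. Snora52, in the ribosomal protein gene Rplp2, had -0.36 ± 0.41.

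Among the C/D box RNAs, Snord64 had the highest level per kilobase, 49.0 CPM per kilobase with its RefSeq length of 46 bases. It had 1.88, 1.68 and 3.54 CPM in knockdown replicates 1, 2 and 3, against 2.29, 1.87 and 2.27 CPM in control replicates 1, 2 and 3. Knockdown replicate 3 was its highest library, unlike the scaRNAs, and its log2 fold change of 0.15 ± 0.31 was -0.25 without it. Its host Snhg14 was also highest there, at 112, 111 and 204 CPM in the knockdown, against 144, 138 and 154 CPM in the control. Both have the same strand and Snord64 lies in the introns of Snhg14, so that reads of the unspliced host and of the snoRNA cannot be told apart. The same limit holds for the other members that lie within a host on their strand.

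The 17 Snord116 rows of the same host held 126 counts in all, over 6 libraries. Snord116l12 had 95 of them, while the 14 copies with 1 shared sequence had 22 together. Snord116l12 differs from Snord116l1 at C74A, T77A and C81A, where positions run from 1 at the 5′ end and the base of Snord116l1 is given first, and Snord116l1 had 0 counts. Reads that fit several identical copies may have been dropped or divided, and no source used here says how they were treated. Snord116l12 had 24, 6 and 34 counts in the knockdown, against 13, 8 and 10 counts in the control, and a log2 fold change of 0.84 ± 0.55 (SE, unadjusted p = 0.159 in edgeR).

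Snord15b, known as U15, had the smallest p of all members. It had 1.84, 1.28 and 1.17 CPM in the knockdown, against 0.659, 0.783 and 1.26 CPM in the control. Control replicate 3 lay among the knockdown libraries, and the log2 fold change was 0.69 ± 0.35 (SE, unadjusted p = 0.0724 in edgeR). Snord99 had 33, 24 and 26 counts in the knockdown, against 16, 19 and 12 counts in the control. Its groups did not overlap, and the log2 fold change was 0.67 ± 0.36 (SE, unadjusted p = 0.0868 in edgeR), while that of its host Snhg12 was -0.14 ± 0.21. On the lower side Snord4a, in Rpl23a, had -0.82 ± 0.50, which was -0.35 without control replicate 3. Snord104 had -0.57 ± 0.44. Snord12, in Zfas1, had 16, 11 and 13 counts in the knockdown and 17, 20 and 13 in the control, which no longer overlapped once scaled, at 0.311 to 0.368 CPM against 0.415 to 0.505 CPM. Snord12 and Snord116l12 were named after their values had been seen.

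Snord17, in the sorting nexin gene Snx5, had the largest SD of the class among members of at least 50 counts, 0.49. It had 4.11, 4.38 and 2.03 CPM in the knockdown, against 1.85, 2.70 and 2.99 CPM in the control, and was low in the same libraries as Scarna2. Its log2 fold change was 0.48 ± 0.31. Snord2, in the translation factor gene Eif4a2, had the smallest SD of these, 0.29, with 1.88, 1.57 and 1.15 CPM in the knockdown, against 2.07, 1.52 and 1.65 CPM in the control. Snord55 had a log2 fold change of 0.18 ± 0.35, which was -0.08 without knockdown replicate 1. Snord43, in the ribosomal protein gene Rpl3, had 41, 35 and 37 counts in the knockdown, against 31, 36 and 24 counts in the control, and a log2 fold change of 0.17 ± 0.31.

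The C/D box RNAs Snord118 and Snord13, named for their known roles, were at low counts. Snord118, known as U8 and needed for the large ribosomal subunit, had 10, 29 and 14 counts in the knockdown, against 11, 12 and 21 counts in the control. Each group had 1 high library, and the log2 fold change of 0.10 ± 0.59 was between -0.60 and 0.69 with a library left out. Snord13, known as U13, had 18, 11 and 3 counts in the knockdown, against 3, 12 and 8 counts in the control, and was again lowest in knockdown replicate 3 and control replicate 1. Its log2 fold change of 0.30 ± 0.69 was between -0.19 and 0.77 with a library left out.

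The U14 RNAs, which both guide methylation of 18S ribosomal RNA and are needed to cut its precursor, were represented by 4 copies from a pair of hosts. Snord14a, in the ribosomal protein gene Rps13, had 0.574, 0.725 and 0.406 CPM in the knockdown, against 0.293, 0.657 and 0.288 CPM in the control, and a log2 fold change of 0.43 ± 0.46. From Hspa8, Snord14c had 0.05 ± 0.43, Snord14d -0.16 ± 0.40 and Snord14e -0.22 ± 0.39. Snord14c and Snord14d shared 84 of 86 aligned bases, and each shared 74 of 93 with Snord14e. The value of Snord14c was below 0 in 4 of the 6 fits with a library left out.

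Hosts on the same strand were found for 136 members, in 88 genes. Among the hosts, 23 had numbered symbols of ribosomal protein genes, and Rpsa, the host of Snora62, also encodes a ribosomal protein. Of these members, 90 lay in protein-coding genes and 46 in long non-coding RNA genes, and 78 were intronic in every GENCODE transcript of the host. Another 36 overlapped exons of retained-intron transcripts alone, and 15 an exon of another transcript. No count was recorded for 12, 3 and 2 of these, and the median mean count was 6.83, 15.4 and 22.8. The 78 intronic members included all 17 Snord116 rows of Snhg14, and 8 of those rows were among the 12 without a count. In the 74 pairs in which both were tested, the signs of the fold changes were the same in 35, and Spearman's rho between them was 0.19. By class the signs were the same in 26 of 42 C/D box pairs with a rho of 0.45, in 7 of 28 H/ACA box pairs with a rho of -0.20, and in 2 of 4 scaRNA pairs. These are descriptions over pairs that share hosts and libraries, and the difference between the classes was not tested. Their 58 hosts had log2 fold changes of -0.26 to 0.22, and 0 had an unadjusted p under 0.05.

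Among the abundant members with a host, the host varied less than the member. The SD of Ncapd2 was 0.11, where that of Scarna10 was 0.68, and the SD of Atg16l1 was 0.12, where that of Scarna6 was 0.51. Snhg3, the host of Snora73b and Snora73a, had an SD of 0.26 and a log2 fold change of -0.26 ± 0.23. Hosts of other widely spread members were less even: Snhg10 had an SD of 0.36, where that of Scarna13 was 0.80, and Ncl, the nucleolin gene that houses Snora75, had an SD of 0.31. Snhg3 had 137 counts in the mean, where Snora73b had 370 and Snora73a had 214. Scarna13 also had more counts than its host, at 139% of those of Snhg10, while Snord64 had 1.58% of those of Snhg14.

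Genes of the proteins that bind, build or trim these RNAs did not pass the test either. Nor did genes of the nucleolus or the spliced host genes, with 0 called in each of 7 lists in edgeR's test. The 4 genes of the C/D core, Fbl, Nop56, Nop58 and Snu13, had a median log2 fold change of 0.04 and lay between -0.05 and 0.10. Of the 4 genes of the H/ACA core, Nop10 had -0.31 ± 0.16 (SE, unadjusted p = 0.0823 in edgeR), Gar1 -0.34 ± 0.21, Nhp2 -0.14 ± 0.16 and Dkc1, which encodes the pseudouridine synthase dyskerin, 0.10 ± 0.11. Their median was -0.22, beside -0.01 for all genes. Coil, which encodes the scaffold of the Cajal body, had 0.02 ± 0.13, and Wrap53, whose protein brings scaRNAs there, 0.16 ± 0.12.

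The medians were -0.00 over 9 assembly genes, 0.03 over 10 of 12 genes of the Cajal body and trafficking, 0.00 over 13 genes of the nucleolus and -0.01 over 7 of 8 genes of trimming and debranching. Among the last, Exosc10, which encodes the nuclear exosome enzyme that trims snoRNA ends, had 22.9, 25.04 and 24.9 CPM in the knockdown, against 30.3, 27.3 and 28.1 CPM in the control. Its groups did not overlap, its log2 fold change was -0.23 ± 0.11 and its unadjusted p was 0.0505 in edgeR, and it was named after its values had been seen. Of 23 genes listed as spliced host genes, most but not all of them known for housing snoRNAs, 20 were tested. Of those tested, 6 were above 0 and 14 below, with a median of -0.06. Snhg9, Rian and Meg3 did not pass the filter on low counts.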

How the data were processed

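Per the labels' protocols, total RNA from 2 to 3 wells per condition, plated at 150000 cells, had its ribosomal RNA depleted before strand-keeping libraries were made and read from both ends over 150 bases. The authors deposited whole-number counts per gene, 1 table per library, and FPKM values with the columns that Cufflinks writes, per the file headers. The submitters' processing notes name bcl2fastq 2.20, Cufflinks 2.2.1, DESeq2 and the builds GRCm38 and mm10. The aligner, the counting tool, its strand setting and its treatment of reads that fit several places are named in none of the sources used here. For 142 of 152 members the position in the deposited FPKM tables was identical to RefSeq's, whose lengths were used.

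Counts were fitted with edgeR 4.0.16 (R 4.3.3): filterByExpr, TMM scaling, the quasi-likelihood test with the group alone, and Benjamini-Hochberg adjustment over all genes tested with a threshold of 0.05. CPM values are TMM-scaled, fold changes are knockdown over control and intervals are at 95%. Spread is the within-group SD of log2(CPM + 0.1). Intervals cover counting error and the spread between libraries, and reads are not independent molecules. The fit was also run on simulated counts, and the outcome is not reported here. A host was a RefSeq gene other than a small RNA gene that spans the member on its strand, and the host of 1 named member is not reported here.

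The members and the gene lists were chosen with earlier results of these data known. Named per class were the 4 members with the highest level per kilobase, the 2 with the smallest p in each direction, those of at least 50 counts with the largest and smallest SD, and members of known role. Alternatives were other scalings, filters and tests (DESeq2 1.42.0, limma 3.58.1), FPKM, summed copies, the replicate number as a block, an adjusted p under 0.1 and leaving out each library. GENCODE lengths, spread without single libraries, and the limit of FPKM fits to members above 0 in every library were added after seeing the data.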

Additional observations from a re-analysis of the deposited data

How the results depend on the processing

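The members called stayed at 0 in all 14 other settings and with each library left out. The count over all genes was 0 with each library left out, 11 without a filter on low counts and 1 in DESeq2's test, and 0 of these were members. The median log2 fold change of the C/D box RNAs was 0.37 in the 3 fits of FPKM, which could take 6 of them, and in the counts those 6 had a median of 0.39. The median level of the H/ACA box RNAs was 5.14 CPM per kilobase with GENCODE's lengths, against 6.31 with RefSeq's.

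With a library left out, the log2 ratio of the summed level ranged from 0.02 to 0.21 for C/D box RNAs, from -0.00 to 0.37 for H/ACA box RNAs and from -0.27 to 0.32 for scaRNAs, around 0.13, 0.17 and 0.01 with all libraries. The median log2 fold changes ranged from -0.12 to 0.15, from -0.03 to 0.21 and from -0.46 to 0.34. The median SD ranged from 0.35 to 0.41, from 0.31 to 0.37 and from 0.38 to 0.76, lowest for scaRNAs without knockdown replicate 3. Fold changes of 12 named members changed sign, over ranges of -0.25 to 0.34 (Snord64), -0.077 to 0.46 (Snord55), -0.10 to 0.36 (Snora17), -0.90 to 0.036 (Snora23), -0.21 to 0.59 (Snora74a), -0.18 to 0.38 (Scarna2), -0.71 to 0.44 (Scarna9), -0.58 to 0.29 (Scarna13), -0.60 to 0.69 (Snord118), -0.19 to 0.77 (Snord13), -0.10 to 0.30 (Snord14c) and -0.80 to 0.35 (Scarna17). The cause was not tested.

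With the replicate number as a block, 0 genes and 0 members were called, and the medians were 0.01, 0.07 and -0.15. Scarna9 had -0.061 with the block and -0.10 in limma voom, against 0.11, and the 320 other values of named members kept their sign. Libraries of the same number correlated at 0.32, 0.36 and 0.04 for replicates 1, 2 and 3 in their deviations from the group means over 14501 genes. Libraries of different numbers correlated at -0.37 to 0.11. The values for replicates 1 and 2 lay above that range, and the value for replicate 3 lay within it. Pairing by number was therefore neither shown nor excluded for all libraries. The labels name no pairs, and the main fit used the group alone. Depth limits the box classes, whose members mostly had under 50 counts.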
